A study of Mus musculus with 8 samples.

Results

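A group of 80 genes of the 13341 in the deposited table had a normalised level of 10 or more in each of the 4 kidney T cell libraries and no read in any of the 4 spleen T cell libraries. The group was chosen by those values, after genes whose symbols start with Slc and the genes Ak4, Egln3, Epas1, Il17a and Fxyd2 were set aside by name. Before that step 86 genes met the values, and the 6 set aside among them were Ak4, Fxyd2, Slc13a1, Slc22a18, Slc34a1 and Slc4a4. The libraries were RNA-seq libraries of CD44hi T cells (CD44 is raised on T cells that have met antigen) sorted from MRL/lpr animals, in which the death receptor gene Fas is disrupted by lpr and a lupus-like disease with nephritis develops. All groups came from mice of this strain aged 14 weeks, so no healthy strain and no earlier age stood beside them. The 4 groups were kidney CD8+, kidney CD4+, spleen CD8+ and spleen CD4+ T cells, with 2 libraries each, made with a low-input kit that copies full-length transcripts and does not mark strand. The labels do not say whether libraries came from separate or pooled mice, so p-values measure the spread between these libraries, which may be technical.

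The proximal tubule is the first stretch of the nephron, where most of the filtered glucose, amino acids, phosphate and small proteins are taken back. Its cells also make glucose from lactate and amino acids, break down inositol and amino acids, and conjugate steroids and foreign compounds for excretion. Many of the genes for this work are controlled by the transcription factors HNF4A and HNF1, which the tubule shares with the liver.

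Lineage genes followed the labels. The level of Cd8a, a chain of the CD8 co-receptor, was 18302 and 18556 in kidney CD8+ libraries, against 103 and 5.20 in kidney CD4+ libraries. Cd4 showed the reverse, at 17.8 and 17.0 in kidney CD8+ libraries, against 2224 and 1686 in kidney CD4+ libraries. Cd3e, a chain of the T cell receptor complex, stood at 4225 and 6174 in kidney CD8+ libraries and at 5456 and 637 in kidney CD4+ libraries, so kidney CD4+ replicate 2 had the lowest value. The 8 libraries held 7477544 to 11169003 reads each over 10544 to 12103 genes. A level is the reads of a gene divided by a factor of the library, and 1 read was worth 0.554 to 1.04 units of level.

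The 5 genes that mark this group were Miox, Fbp1, Akr1c21, Acy3 and Acmsd, and the first 4 of them were among the 6 genes with the highest mean level per kb of exon. Miox codes for the enzyme that opens the ring of inositol and lies at chr15:89164829-89167446 (+ strand, mm9). Its level was 1252 and 3247 in kidney CD8+ libraries and 1281 and 5964 in kidney CD4+ libraries. Fbp1, the fructose bisphosphatase of gluconeogenesis at chr13:62966113-62989642 (- strand, mm9), stood at 856 and 3571 in kidney CD8+ libraries and at 781 and 3666 in kidney CD4+ libraries. In both genes the second replicate of each cell type was the higher one, and the cell types overlapped. Akr1c21, a hydroxysteroid dehydrogenase of mouse kidney at chr13:4573321-4585787 (+ strand, mm9), stood at 475 and 1224 in kidney CD8+ libraries and at 465 and 1706 in kidney CD4+ libraries. Acy3, which deacylates mercapturic acids, lies at chr19:3986661-3990007 (+ strand, mm9) and stood at 387 and 897 in kidney CD8+ libraries and at 459 and 1755 in kidney CD4+ libraries. Acmsd, which steers tryptophan breakdown away from NAD synthesis, was much lower and did not follow the others. Its level was 13.6 and 38.5 in kidney CD8+ libraries and 76.8 and 44.7 in kidney CD4+ libraries, and the cell types did not overlap. Acmsd lies at chr1:129625990-129664141 (+ strand, mm9).

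The promoters of 6 of the genes are shown because they carry letters of HNF1 or HNF4 motifs and stand for the main roles of the group: Miox, Akr1c21 and Pcbd1 among the high metabolic genes, Aadat for tryptophan breakdown, Tmem27 for amino acid uptake and Hnf4a as the transcription factor itself. Each line gives the 250 bases before the start of transcription of the RefSeq entry, 5′ to 3′ on the + strand of GRCm38.p6, with motif letters in capitals. Capitals mark GTTAAT, the core letters of the HNF1 motif, or their reverse complement, except in Aadat, where they mark the HNF4 letters on the opposite strand, and in Tmem27, where the second run of capitals is the full HNF1 motif.
Miox, chr15:89334223-89334472: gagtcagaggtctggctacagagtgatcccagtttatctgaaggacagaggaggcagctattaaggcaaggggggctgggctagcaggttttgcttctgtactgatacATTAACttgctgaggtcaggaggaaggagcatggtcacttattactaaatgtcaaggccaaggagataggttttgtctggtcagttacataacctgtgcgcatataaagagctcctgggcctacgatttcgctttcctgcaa
Akr1c21, chr13:4573825-4574074: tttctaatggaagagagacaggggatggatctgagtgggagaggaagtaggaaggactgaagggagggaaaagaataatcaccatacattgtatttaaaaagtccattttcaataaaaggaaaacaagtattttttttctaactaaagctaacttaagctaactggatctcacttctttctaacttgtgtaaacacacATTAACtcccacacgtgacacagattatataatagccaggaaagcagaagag
Pcbd1, chr10:61089081-61089330: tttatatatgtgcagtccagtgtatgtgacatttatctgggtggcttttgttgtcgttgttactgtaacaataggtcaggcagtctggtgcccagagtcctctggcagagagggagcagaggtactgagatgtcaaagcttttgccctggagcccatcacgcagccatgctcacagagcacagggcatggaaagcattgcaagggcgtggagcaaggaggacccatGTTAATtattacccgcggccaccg
Aadat, chr8:60505874-60506123: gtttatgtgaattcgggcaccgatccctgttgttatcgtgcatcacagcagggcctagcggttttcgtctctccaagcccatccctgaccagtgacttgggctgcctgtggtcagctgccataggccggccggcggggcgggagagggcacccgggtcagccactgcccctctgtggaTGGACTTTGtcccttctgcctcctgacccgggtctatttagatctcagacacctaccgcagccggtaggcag
Tmem27 (RefSeq symbol Cltrn), chrX:164089937-164090186: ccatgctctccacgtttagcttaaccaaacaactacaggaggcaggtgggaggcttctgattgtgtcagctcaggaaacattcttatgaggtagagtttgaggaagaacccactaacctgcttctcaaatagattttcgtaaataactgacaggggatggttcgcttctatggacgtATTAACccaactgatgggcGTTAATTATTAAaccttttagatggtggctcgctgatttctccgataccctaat
Hnf4a, chr2:163546905-163547154: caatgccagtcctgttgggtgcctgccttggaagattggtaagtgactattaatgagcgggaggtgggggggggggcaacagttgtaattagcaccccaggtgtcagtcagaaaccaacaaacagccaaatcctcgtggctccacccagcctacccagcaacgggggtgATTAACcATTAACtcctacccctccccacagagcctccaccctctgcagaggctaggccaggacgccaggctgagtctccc

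The matches began 142 bases before the start in Miox, 52 in Akr1c21, 24 in Pcbd1 and 72 in Aadat. In Tmem27 the full HNF1 motif began 54 bases before the start and the core letters on the other strand 73 bases before it. Hnf4a held the core letters at 2 places on the opposite strand, at 81 and 74 bases. Hnf4a and Tmem27 each have a further RefSeq start whose window held none of the motifs and is not shown. The motifs were searched on both strands as GTTAAT for the HNF1 core, GTTAAT, any 1 base and ATTAA for the full HNF1 motif, CAAAGTCCA for HNF4 and AGGTCA, any 1 base and AGGTCA for a direct repeat of nuclear receptor sites. The core lies inside the full HNF1 motif, so a full match counts under both. Of the 80 genes, 65 had a RefSeq promoter entry, and 15 of these 65 (23.1%) held the HNF1 core. The share was 5.23% of the 10193 table genes with an entry and 7.49% of all 27025 genes with one. The full HNF1 motif was in 1 of the 65 (1.54%, Tmem27), against 0.0491% of table genes. The HNF4 letters were in 2 of the 65 (3.08%, Aadat and Aspdh), against 0.50% of table genes, and the direct repeat was in 0 of the 65, against 0.0589%. These shares describe letters in these windows and carry no test.

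Of the 80 genes, 41 were on none of the lists fixed for segments, cell types and functions, and 39 were on at least 1. Among the 20 genes on a segment list, 18 were on that of the early proximal tubule. The lists were fixed with earlier results of these data known. The early list holds the marker genes named above, so the count does not separate the early from the straight part. Of the 44 genes of that list with values, 18 were in the group, 1 more (Slc34a1) was set aside by name, 15 had no spleen read but fell short of a level of 10 in at least 1 kidney library, and 10 had a spleen read. Only 1 of 19 genes of the straight proximal tubule belonged to the group, Aadat, an aminotransferase of kynurenine and lysine breakdown. Likewise 1 of 18 genes of the distal convoluted and connecting tubule belonged to it, S100g, the calbindin-D9k that carries calcium across distal cells, and Fxyd2, a subunit of the sodium pump, met the values but was set aside. None of 18 loop of Henle genes, 17 collecting duct genes, 9 podocyte genes, 8 endothelial genes, 10 stromal genes or 30 genes of epithelial adhesion and injury was in the group. Many of these had a spleen read, which the rule does not allow. They were 9 loop, 11 collecting duct, 7 podocyte, 6 endothelial, 7 stromal and 23 adhesion and injury genes. Spleen reads were also found for 11 genes of the straight part and 14 of the distal list. Being outside the group did not mean being at 0 in kidney. Umod, the uromodulin of the loop of Henle, had no spleen read and levels of 8.49 and 54.0 in kidney CD8+ libraries and 43.0 and 59.3 in kidney CD4+ libraries, so it missed the threshold in 1 library.

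**Figure D1:**
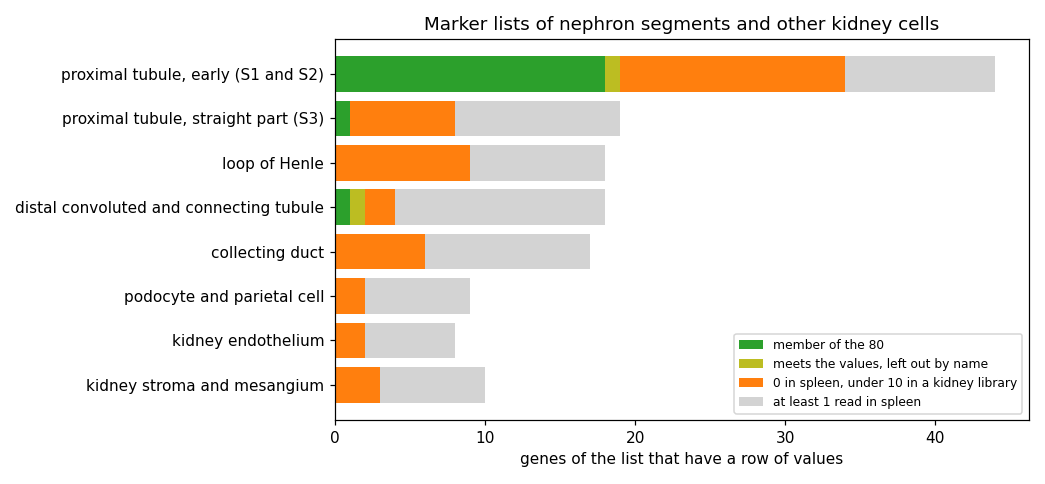
Number of genes (horizontal axis) of each marker list that had a row of values, split into genes of the group, genes that met the values but were set aside by name, genes at 0 in spleen that were under a level of 10 in at least 1 kidney library, and genes with a spleen read. The early proximal tubule bar holds 18 of the 44 genes in the group, and the loop, collecting duct, podocyte, endothelial and stromal bars hold none.

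In spleen the genes had 0 reads by definition, which allows a level of up to 1.66 to 2.86 in single libraries (3 reads, counting error only). Set against 3 reads over the pair of spleen libraries, the mean kidney level was at least 9.18 to 1899 times higher in CD8+ cells over the 80 genes, with a median of 79.3. In CD4+ cells these lower bounds ran between 11.4 and 3578, with a median of 85.3. The rule fixed this direction, and its kidney level of 10 also kept every bound from being small, so no test was made. The bounds allow for spleen counting error only, not for that of the kidney reads or the spread between replicates. The 3 genes just inside the threshold were Snx7, Hsd3b3 and Fut9, with lowest kidney levels of 10.2, 10.4 and 10.6. Just outside it were Serpina3b, Mettl7b and Umod, at 9.87, 9.16 and 8.49. The edge of the group is crowded, with 29 genes whose lowest level was between 10 and 20 and 18 further genes between 5 and 10. The opposite pattern, no read in any kidney library and a level of 10 or more in every spleen library, was met by 11 genes.

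The mean level over the 4 kidney libraries ran between 12.9 and 2936 with a median of 87.7; 4 genes reached 1000, 38 reached 100 and 23 were under 50. A long transcript gives more reads than a short one, so levels of different genes are compared here per kb of exon. The mean level per kb was highest for Miox (1778), Fbp1 (1304), Gsta2 (819), Pcbd1 (722), Akr1c21 (669) and Acy3 (581). Keg1 and Pck1, which had the next highest levels after Miox and Fbp1, had 269 and 372 per kb. The mean level per kb was lowest for Rnf152, a ubiquitin ligase, at 1.51. Lrp2, whose merged exon length of 16701 nt was the longest among the 77 genes with a length, had 3.07.

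**Figure D2:**
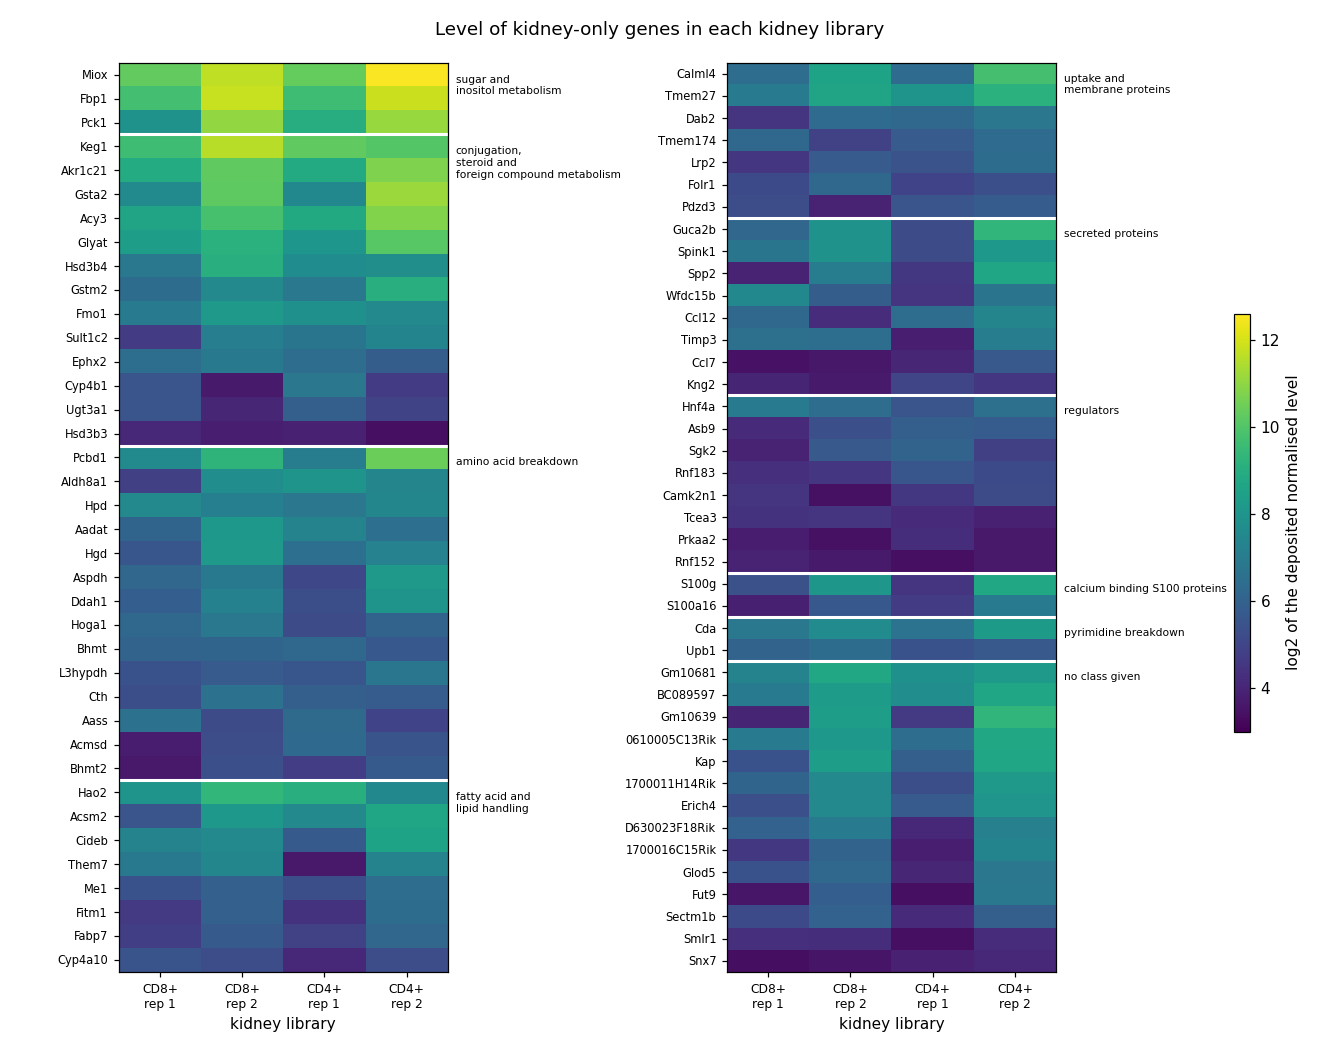
Heat map of log2 of the deposited normalised level for the genes of the group except 1 that is not reported (rows, grouped by function class and ordered by mean level) in the 4 kidney libraries (columns). Miox, Fbp1 and Keg1 are the brightest rows, and the second replicate of each cell type is the brighter column for most of the high genes.

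Sugar and inositol enzymes carried the largest or second largest share of the group's summed level although they were only 3 genes. Besides Miox and Fbp1 they comprised Pck1, the cytosolic phosphoenolpyruvate carboxykinase that starts gluconeogenesis. The level of Pck1 was 244 and 2122 in kidney CD8+ libraries and 511 and 2226 in kidney CD4+ libraries, so the replicates of each cell type lay far apart. The 3 genes made up 25.6% and 33.8% of the group's summed level in kidney CD8+ libraries and 24% and 35.1% in kidney CD4+ libraries. Of the 14 genes of gluconeogenesis and fructose use with values, 2 were in the group and 10 had spleen reads.

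Genes of conjugation, steroid and foreign compound metabolism, Akr1c21 and Acy3 among them, were 13 of the 80. They made up 29.5% and 31.0% of the summed level in kidney CD8+ libraries and 32.6% and 27.0% in kidney CD4+ libraries. Keg1, a relative of glycine N-acyltransferase, stood at 784 and 3048 in kidney CD8+ libraries and at 1207 and 1044 in kidney CD4+ libraries, and its kidney CD4+ replicates were close together. Its neighbour Glyat, which joins glycine to benzoate and other acids, stood at 336 and 554 in kidney CD8+ libraries and at 261 and 1117 in kidney CD4+ libraries. Gsta2, a glutathione transferase, stood at 188 and 1177 in kidney CD8+ libraries and at 180 and 2311 in kidney CD4+ libraries, again with the second replicate far above the first. Hsd3b4, a hydroxysteroid dehydrogenase of the 3-beta type, stood at 115 and 527 in kidney CD8+ libraries and at 201 and 213 in kidney CD4+ libraries. The class also held Gstm2, Fmo1, Sult1c2, Ephx2, Cyp4b1, Ugt3a1 and Hsd3b3. Of the 75 genes of the list for xenobiotic, steroid and glutathione handling with values, 10 were in the group, 28 more had no spleen read and 37 had one.

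Amino acid breakdown was the most numerous class, with 15 genes and 12.8% and 10.1% of the summed level in kidney CD8+ libraries and 15% and 9.68% in kidney CD4+ libraries. Hpd and Hgd act in tyrosine breakdown. Hpd, the dioxygenase that makes homogentisate, stood at 183 and 143 in kidney CD8+ libraries and at 111 and 170 in kidney CD4+ libraries, and Hgd, the homogentisate dioxygenase that follows it, at 47.5 and 283 in kidney CD8+ libraries and 90.2 and 152 in kidney CD4+ libraries. Pcbd1, which regenerates a pterin cofactor and is also a dimerization cofactor of HNF1, had the highest level and the highest level per kb of the class. Its level was 193 and 602 in kidney CD8+ libraries and 134 and 1409 in kidney CD4+ libraries, so these 3 genes had reads throughout but their order of libraries differed. Tryptophan and kynurenine breakdown was represented by Acmsd, Aldh8a1 and Aadat. Aadat stood at 67.9 and 275 in kidney CD8+ libraries and at 155 and 91.6 in kidney CD4+ libraries, with the cell types overlapping. Other genes of the class act on homocysteine and methionine (Bhmt, Bhmt2 and Cth), lysine (Aass), hydroxyproline (Hoga1 and L3hypdh), methylated arginine (Ddah1) and, by name, aspartate (Aspdh). Of 62 genes of the list of amino acid and urea cycle enzymes with values, 13 were in the group and 40 had spleen reads.

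Fatty acid and lipid genes numbered 8. Hao2, a hydroxy acid oxidase of peroxisomes, stood at 250 and 658 in kidney CD8+ libraries and at 538 and 179 in kidney CD4+ libraries, and was one of the 20 genes whose second kidney CD4+ replicate was the lower one. Acsm2, which activates medium-chain acids, stood at 46.7 and 278 in kidney CD8+ libraries and at 183 and 405 in kidney CD4+ libraries. Of 57 fatty acid, ketone and peroxisome genes with values, 3 were in the group (Acsm2, Cyp4b1 and Cyp4a10), 11 more had no spleen read and 43 had one.

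Uptake was represented by Lrp2, the endocytic receptor megalin, its adaptor Dab2, the folate receptor Folr1, the collectrin Tmem27, a partner of amino acid transporters, and Pdzd3, a scaffold of the brush border. Tmem27 stood at 127 and 388 in kidney CD8+ libraries and at 253 and 563 in kidney CD4+ libraries. Calml4, a calmodulin-like protein of brush border, stood at 85.7 and 383 in kidney CD8+ libraries and at 82.5 and 863 in kidney CD4+ libraries. The receptors had lower levels: Lrp2 stood at 22.9 and 54.7 in kidney CD8+ libraries and at 44.4 and 83.2 in kidney CD4+ libraries. Folr1 stood at 35.6 and 74.8 in kidney CD8+ libraries and at 30.3 and 40.6 in kidney CD4+ libraries. Of 40 brush border and endocytosis genes with values, the 5 in the group were Lrp2, Dab2, Folr1, Tmem27 and Pdzd3, and 15 more had no spleen read.

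Among secreted proteins, Guca2b, the peptide uroguanylin that promotes salt excretion, stood at 71.3 and 242 in kidney CD8+ libraries and at 37.4 and 644 in kidney CD4+ libraries. S100g stood at 41.6 and 271 in kidney CD8+ libraries and at 22.6 and 416 in kidney CD4+ libraries. Both followed the high proximal tubule genes in having the second replicate far above the first. Hnf4a, which activates many tubule genes and was the only 1 of 23 nephron transcription factors with values to meet the rule, stood at 126 and 86.3 in kidney CD8+ libraries and at 45.8 and 93.7 in kidney CD4+ libraries. Ccl7 and Ccl12, chemokines that attract monocytes, lie 54319 nt apart on chromosome 11 in mm9 and belong to no nephron list. Ccl12 stood at 73.0 and 18.5 in kidney CD8+ libraries and at 86.7 and 165 in kidney CD4+ libraries, and Ccl7 at 11 and 12.3 in kidney CD8+ libraries and at 16.2 and 51.0 in kidney CD4+ libraries. The kidney CD4+ libraries were above the kidney CD8+ libraries for both. The 14 macrophage genes with values summed to 2473 and 1953 in kidney CD8+ libraries, 7203 and 6954 in kidney CD4+ libraries, 1056 and 1733 in spleen CD8+ libraries and 1776 and 2356 in spleen CD4+ libraries, so they moved in the same direction between the kidney cell types. The spleen CD4+ sums were above the spleen CD8+ sums too, so this direction was not particular to kidney. Over the 12 macrophage genes tested in kidney the median log2 difference of CD8+ minus CD4+ was -1.75, with 0 called by limma. Csf1r, 1 of the 14 genes, stood at 0.849 and 2.31 in kidney CD8+ libraries and at 65.5 and 84.3 in kidney CD4+ libraries. Its step was far larger than that of the sums, so it does not stand for the list. The part of the macrophage genes in the chemokine levels was not tested.

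The other classes were smaller or carry no clear role. Pyrimidine breakdown held Cda, the cytidine deaminase, and Upb1, which makes beta-alanine. Regulators numbered 8 with Hnf4a and made up 2.72% and 0.976% of the summed level in kidney CD8+ libraries and 2.71% and 0.853% in kidney CD4+ libraries, a smaller share in the second replicates. Their own sum hardly differed between replicates, at 250 and 258 in kidney CD8+ libraries and 290 and 288 in kidney CD4+ libraries. Among them were Prkaa2, a catalytic subunit of the energy sensor AMPK, and the ubiquitin ligases Rnf152 and Rnf183. The other secreted proteins were Spink1, a trypsin inhibitor, Spp2, Wfdc15b, Timp3, an inhibitor of matrix proteases, and Kng2, a kininogen. No class was given to 14 genes, among them Kap, the kidney androgen-regulated protein, and gene models known only by a number, and they made up 8.52% and 9.29% of the summed level in kidney CD8+ libraries and 7.48% and 9.87% in kidney CD4+ libraries.

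Genes of the group that share sequence or strands limit single values. Members with near-copies among the genes of their family, such as Hsd3b3 and Hsd3b4, Gsta2, Bhmt and Bhmt2, and Cyp4a10, may share reads with those copies, and 7 pairs of members lay within 100000 nt of each other in mm9, including Glyat and Keg1 and Bhmt and Bhmt2. Calml4, S100g, Timp3 and 0610005C13Rik overlap on the opposite strand a gene that is also in the table (Gm10653, Ctps2, Syn3 and Bcat2), and without strand the reads of such pairs cannot be told apart.

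The group as a whole differed more between replicates than between cell types. Its summed level was 9198 and 26456 in kidney CD8+ libraries and 10703 and 33772 in kidney CD4+ libraries, and its share of all reads was 0.118% and 0.354% in kidney CD8+ libraries and 0.171% and 0.434% in kidney CD4+ libraries. Replicate 2 exceeded replicate 1 by 2.88 times in kidney CD8+ and by 3.16 times in kidney CD4+ libraries. In bulk libraries, fewer cells of a type and less RNA per cell cannot be told apart. The summed level of 17 T cell identity genes was 168850 and 164939 in kidney CD8+ libraries and 121124 and 128575 in kidney CD4+ libraries, so the sum did not show this step between replicates. With so small a share of the reads, a step in the group would hardly move that sum. Single genes in the sum did differ, with Cd3e at 4225 and 6174 in kidney CD8+ and at 5456 and 637 in kidney CD4+ libraries. Per 1000 units of T cell identity level the group stood at 54.5 and 160 in kidney CD8+ libraries and at 88.4 and 263 in kidney CD4+ libraries.

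**Figure D3:**
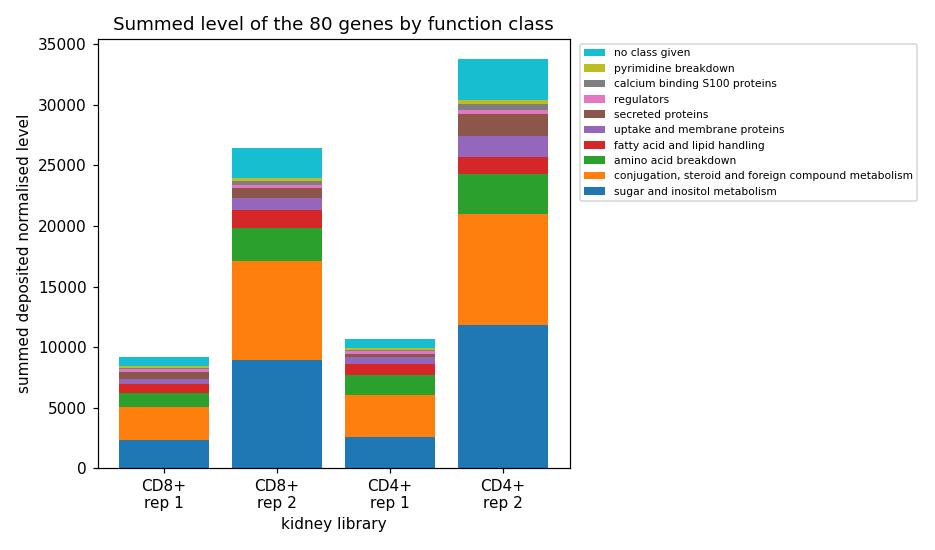
Summed deposited normalised level of the 80 genes (vertical axis, from 0) in each of the 4 kidney libraries, with the function classes stacked. The second replicates reach 26456 (CD8+) and 33772 (CD4+), above the first replicates at 9198 and 10703, and sugar and inositol enzymes make up 33.8% and 35.1% of the second replicates, against 25.6% and 24% of the first.

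Single genes followed the sum in most but not all cases. Replicate 2 was the higher one for 63 of 80 genes in kidney CD8+ cells, with a median ratio of 2.23, and for 60 of 80 in kidney CD4+ cells, with a median ratio of 2.1. In 49 genes it was higher in both cell types, in 14 in kidney CD8+ alone, in 11 in kidney CD4+ alone and in 6 in neither. The 7509 other genes with a level of 10 or more in all kidney libraries had a median log2 ratio of -0.00438 in kidney CD8+ and -0.34 in kidney CD4+ cells. Across the 80 genes, Pearson's r of log2 levels was 0.906 between the second replicates of CD8+ and CD4+, 0.787 between the kidney CD8+ replicates and 0.654 between the kidney CD4+ replicates, as a description of libraries that share their genes. Among the other 7509 genes the same r was 0.888, 0.939 and 0.789. The highest of the 4 libraries was kidney CD4+ replicate 2 for 46 genes and kidney CD8+ replicate 2 for 16. The ratio of the highest to the lowest library ran between 1.45 and 39.2 with a median of 4.33, above 10 in 10 genes and under 2 in 9. Among the 9 were Hpd and Bhmt, a methyltransferase that uses betaine, at 67.1 and 68.6 in kidney CD8+ libraries and 75.4 and 49.9 in kidney CD4+ libraries. The lowest ratio was that of Rnf152, at 15.3 and 13.1 in kidney CD8+ libraries and 10.6 and 12.5 in kidney CD4+ libraries. Those levels lie near the threshold of 10, where the rule limits how low a library can be.

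Among genes with more than a numbered name, the ratio of kidney CD4+ replicate 2 over replicate 1 was largest for S100g (18.5), Spp2 (17.6), Guca2b (17.2), Gsta2 (12.9) and Them7 (12.4). It was smallest for Cyp4b1 (0.234), Hao2 (0.333), Aass (0.379), Sgk2 (0.420) and Ugt3a1 (0.521). The first 4 of these 10 were also higher in the second kidney CD8+ replicate, by 6.52, 8.53, 3.39 and 6.28 times, while Them7 differed there by 1.44 times. The 5 large ratios were those of genes with merged exon lengths of 480 to 1556 nt. Exon lengths of the 77 genes with an mm9 match had a median of 1993 nt, against 3509 nt for the other kidney genes. In kidney CD4+ cells the median ratio of replicate 2 over replicate 1 was 7.11 for the 14 genes up to 1000 nt, 3.67 for 11 genes up to 1500 nt, 1.32 for 28 genes up to 2500 nt and 1.78 for 24 longer genes, with Spearman's rho of -0.50 over 77 genes. In kidney CD8+ cells the same medians were 2.95, 2.25, 2.26 and 1.74, with rho of -0.24. The other kidney genes had medians of 2.55, 1.62, 0.811 and 0.684 in kidney CD4+ cells and of 0.869, 0.965, 1.03 and 1.0 in kidney CD8+ cells. In each length class the group's median was thus above that of the other genes, and in kidney CD4+ cells short genes stood higher in replicate 2 in both sets. The part of length in the levels was not tested.

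**Figure D4:**
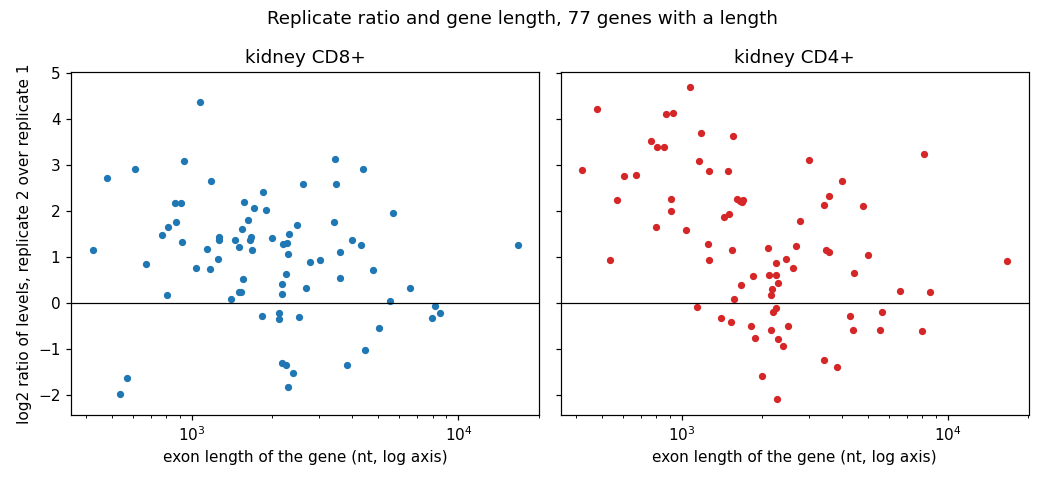
Log2 ratio of the level in replicate 2 over replicate 1 (vertical axis) against exon length (horizontal log axis, nt) for the 77 genes with a length, in kidney CD8+ (left) and kidney CD4+ cells (right). The ratios fall with length in CD4+ cells, with rho of -0.50, and less so in CD8+ cells, with rho of -0.24.

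Between the kidney cell types, which the rule did not compare, no gene of the group passed the test. In limma on log2(level + 1) with Benjamini-Hochberg adjustment over 10080 genes, 0 of the 80 were called higher and 0 lower in kidney CD8+ cells, where the whole table had 0.00992% called higher (Cd8b1) and 0.0198% called lower (Cd4 and Tnfrsf4). At an unadjusted limma p under 0.05 the group had 0 genes, against 3.08% of all genes, and edgeR and DESeq2 on recovered reads called none of the 80 either. The smallest limma adjusted p in the group was 1. The median log2 difference of kidney CD8+ minus kidney CD4+ was -0.26 over the 80 genes and 0.04 over all genes tested. Of the 80 genes, 29 stood higher and 51 lower, and of the 10080 genes tested 5301 stood higher and 4779 lower. The cell types did not overlap in 7 genes that were higher in kidney CD8+ (8.75%) and 9 that were lower (11.2%), against 14.1% and 14.1% of all genes. The median standard error was 0.93 on the log2 scale, so differences of a doubling, and larger ones too, could not be told from 0 here. Even the largest difference in the group, that of Ccl12 (-1.67), had an unadjusted limma p of 0.10.

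The intervals of the marker genes were wide. The log2 difference of kidney CD8+ minus kidney CD4+ was -0.45 for Miox (95% interval -2.51 to 1.60), 0.05 for Fbp1 (-2.21 to 2.30), -0.22 for Akr1c21 (-2.12 to 1.67), -0.61 for Acy3 (-2.48 to 1.27) and -1.31 for Acmsd (-3.45 to 0.82). The largest positive value was that of Them7, a thioesterase family member, with levels of 119 and 171 in kidney CD8+ libraries and 12.7 and 157 in kidney CD4+ libraries (log2 difference 1.63 ± 1.15 SE). Leaving out numbered gene models, it was followed by Wfdc15b, Timp3, Hoga1, Cyp4a10, Upb1, Hnf4a and Spink1, with log2 differences between 0.63 and 1.06. In Them7 and in each of these other genes the lowest of the 4 libraries was kidney CD4+ replicate 1. The kidney CD8+ libraries of Hoga1, an enzyme of hydroxyproline breakdown, stood at 73.8 and 114, against 36.7 and 66.6 in kidney CD4+ libraries, without overlap. The most negative values were those of Ccl12 (-1.67 ± 0.89 SE), Aldh8a1 (-1.38), Acmsd, Acsm2 (-1.24), Ccl7 (-1.24), Spp2 (-1.11), Dab2 (-1.10) and Sult1c2 (-1.10). Aldh8a1, an aldehyde dehydrogenase of kynurenine breakdown, stood at 28.0 and 210 in kidney CD8+ libraries and at 250 and 165 in kidney CD4+ libraries, and Dab2, which macrophages express too, at 22.1 and 80.9 in kidney CD8+ libraries and at 76.1 and 112 in kidney CD4+ libraries. Both overlapped between the cell types.

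**Figure D5:**
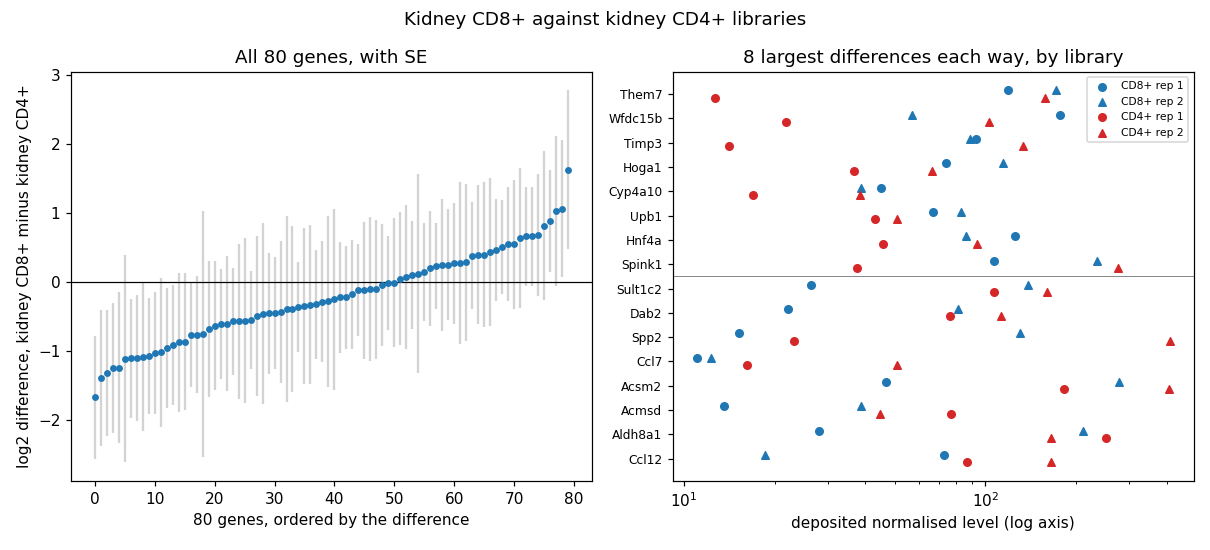
Left, log2 difference of kidney CD8+ minus kidney CD4+ (vertical axis) with its standard error for each of the 80 genes, ordered by the difference. Right, the level in each of the 4 kidney libraries (horizontal log axis) for the 8 genes with the largest positive and the 8 with the most negative difference, numbered gene models left out; for most of them the points of the cell types overlap or lie within the spread of replicates.

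Which replicate of the kidney CD4+ cells was used decided the calls. Without kidney CD4+ replicate 1, when kidney CD4+ replicate 2 was the lone CD4+ library and was assumed to vary like the CD8+ pair, 9 genes were called lower in kidney CD8+ cells by limma: Acy3, Calml4, Glyat, Gsta2, Gstm2, Guca2b, Miox, Pcbd1 and Spp2. The same fit called 1.62% of all genes lower and 7.84% higher, and none of the 80 higher. Without kidney CD4+ replicate 2 none was called lower and only Them7 was called higher (log2 difference 3.39, limma adjusted p = 0.0127), where 4.53% of all genes were called lower and 4.21% higher. The median difference over the 80 genes was between -0.98 and 0.38 over the 4 fits that left out a library, and turned positive without kidney CD8+ replicate 1 (0.38) and without kidney CD4+ replicate 2 (0.36). Of the lists fixed for nephron segments and tubule functions, 0 genes were called by limma in either direction with all 4 libraries, over 40 tested early proximal tubule genes (median log2 difference -0.46), 15 of the straight part (-0.52), 5 of the loop of Henle (-0.28), 13 of the distal tubule (-0.11) and 10 of the collecting duct (0.10). Lists of other kidney cells had few genes tested and 0 called. Their medians were -2.11 over 2 podocyte and parietal cell genes, -3.55 over 3 endothelial genes and -0.58 for 1 stromal gene. The 12 macrophage genes tested had a median of -1.75 with 0 called.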

How the data were processed

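RNA of sorted CD44hi T cells from kidney and spleen was sequenced in 8 libraries, 2 a group. One table of normalised signal (a level for each gene and library) was deposited by the authors. The submitters' processing notes name mm9, STAR 2.5.3 and TopHat2 2.1.0; no source used here gives the read counter or its gene annotation. Each deposited signal column was whole reads divided by a constant: all values (100%) came out whole within 1e-06 of a read, so reads were recovered per library. All 8 columns were used and 0 were left out.

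The comparison of kidney CD8+ with kidney CD4+ used limma 3.58.1 (R 4.3.3), with an intensity trend, on log2(level + 1) of the 4 kidney libraries, for the 10080 genes with a level of 10 or more in at least 2 of them; fold changes on this scale understate changes of low genes. Spleen libraries were left out because their zeros would add spread of 0. Genes were called at a Benjamini-Hochberg adjusted p under 0.05. Alternatives were edgeR 4.0.16 and DESeq2 1.42.0 on recovered reads, other scalings, pseudocounts, filters, library weights, a replicate block and leaving out each library. Exon lengths and gene coordinates came from an mm9 annotation (12871 of 13341 symbols matched, 77 of the 80) and promoters from RefSeq.

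Named genes were the 5 markers, the 15 highest, up to 4 per list, the 8 largest differences each way, the 5 largest and smallest replicate ratios and 3 on either side of the threshold; gene models with only a number were left out of these, and 2 genes that the rule would name are not reported here. The 80 genes, the gene lists and the tests were chosen with earlier results of these data known. The limma step was tested on simulated data with a dispersion (spread between replicates beyond counting) of 0.1, a set value not estimated from these libraries. There it called 3.08% of 2-fold, 62.1% of 4-fold and 100% of 16-fold changes, and 2.68% of calls were false. These rates do not say how many changes would be found at the spread of these libraries.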

Additional observations from a re-analysis of the deposited data

How the results depend on the processing

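Of 80 genes, none was called between the kidney cell types under any alternative except those that left out 1 kidney CD4+ library. Leaving out 1 library at a time gave 0 to 1 genes called higher and 0 to 9 lower. Over the whole table, leave-one-out fits called 3 to 749 genes higher and 8 to 430 lower, against 1 and 2 with all 4 kidney libraries. Genes called higher numbered 3 with a pseudocount of 10, 2 with a level of 10 in all 4 kidney libraries and 4 with library weights. With all 8 libraries 14 were called higher and 9 lower, with edgeR 0 and 0 (331 genes at an unadjusted p under 0.05), and with DESeq2 38 and 63. With a replicate block 21 genes were called higher and 32 lower and none of the 80. The labels do not say whether replicate numbers pair the libraries; the deviations of same-numbered libraries correlated with r = 0.0011 over 10080 genes and 0.42 over the 80. The cause of these shifts was not tested. Of 20 named differences under 15 alternatives each (300 in all), 19 reversed, in 12 genes. By DESeq2 Spink1 was at -0.0069 and Fbp1 at -0.14, and by edgeR Fbp1 was at -0.052. Leaving out 1 library at a time, log2 differences ranged between -0.14 and 3.39 for Them7, -0.032 and 2.15 for Wfdc15b, -0.54 and 2.61 for Timp3, -0.79 and 2.06 for Spink1, -2.27 and 0.082 for Sult1c2, -3.15 and 0.93 for Spp2, -2.52 and 0.029 for Acsm2, -2.82 and 0.048 for Aldh8a1, -1.56 and 0.65 for Miox, -1.07 and 1.16 for Fbp1, -1.57 and 0.36 for Acy3 and -1.16 and 0.71 for Akr1c21. The smallest adjusted p over these alternatives was 0.00732 (Miox without kidney CD4+ replicate 1) and the largest 1. The group had 51 genes with a kidney minimum of 20, 98 with a minimum of 5, and 82 to 110 when 1 library was left out. Each library's percent of the group's sum over the 4 kidney libraries moved by less than the standard deviation between replicates under the alternatives run. The summed level itself fell without the 5 most abundant genes. It was then 5586 and 13243 in kidney CD8+ libraries and 6458 and 19168 in kidney CD4+ libraries. The depth of a spleen library at 0 reads allows a level of up to 1.66 to 2.86.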
